A study of Homo sapiens with 2 samples.

Results

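The 46 genes examined here belong to WNT signalling, to the MYC network and to the recurrent drivers of colorectal cancer. They were chosen by name from a list of pathway members, with earlier results of these data known. PHF8 binding had been mapped by chromatin immunoprecipitation and sequencing (ChIP-seq) in RKO, an established line of human colon carcinoma cells. All 46 were found among the 20037 protein-coding genes that have a RefSeq transcript on the GRCh38.p14 assembly. There was 1 library from RKO cells that had received the vector and 1 from RKO cells that had received an APOC2 overexpression plasmid. APOC2 encodes an apolipoprotein. Both groups had thus been transfected. The labels gave no genotype, time after transfection, level of APOC2 or count of transfected cells. There were 4015 listed peaks in the vector library and 8928 in the APOC2 library. A gene counted as occupied when a listed peak had its midpoint 1 kb or less from the annotated start or end of the gene. With 1 library per condition there was no replicate spread to judge a difference by, and no p-value is given.

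In canonical WNT signalling, a WNT ligand binds a Frizzled receptor with an LRP5 or LRP6 co-receptor, and Dishevelled proteins then hold back a destruction complex built from AXIN, APC, GSK3 and casein kinase. When that complex is held back, beta-catenin (CTNNB1) accumulates and joins TCF and LEF factors in the nucleus, where MYC and AXIN2 are well-known targets. Most colorectal tumours carry a lesion that activates this pathway, and RAS, RAF and PI3K lesions often join it. PHF8 is a lysine demethylase that removes methyl groups from repressive histone marks and whose PHD finger binds the methylated histone H3 found at active promoters.

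Of the 46 genes, 16 were occupied in the APOC2 table (34.8%, 95% Wilson interval 22.7 to 49.2%) and 3 in the vector table (6.52%, 2.24 to 17.5%). The background share over all protein-coding genes was 23.8% in the APOC2 table and 5.95% in the vector table, and both lay inside the interval of the 46 genes. All 3 genes occupied in the vector table, GSK3A, GSK3B and BRAF, were also occupied in the APOC2 table, against a background of 5.84% with a peak in both. Peaks in the APOC2 table alone were found at 13 genes (28.3%, 17.3 to 42.5%), against 18.0% of protein-coding genes. No gene of the list was occupied in the vector table alone, a count of 0 of 46 whose 95% Wilson upper limit is 7.71% (6.52% if a count of 0 is taken to allow 3 counts), against a background of 0.105%. Occupied genes were found in every role but the MYC network: 3 of 9 receptors and membrane proteins, 5 of 9 Dishevelled and destruction complex proteins, 2 of 8 nuclear effectors, 0 of 4 genes of the MYC network, 4 of 11 genes of growth factor, RAS and PI3K signalling, and 2 of 5 other drivers. The Wilson intervals of these shares overlapped widely, so the roles could not be ranked at these numbers of genes.

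**Figure D1:**
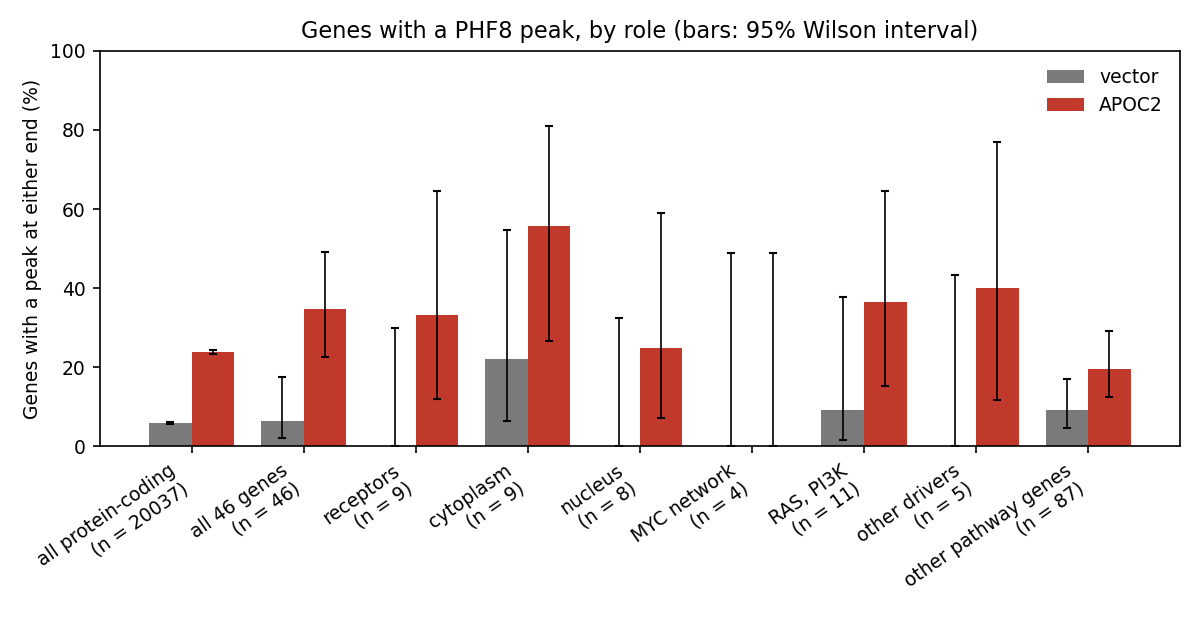
Percent of genes with a PHF8 peak within 1 kb of either annotated end, for the vector table (grey) and the APOC2 table (red), by role, with n genes under each label; error bars are 95% Wilson intervals over genes. The APOC2 share of the 46 genes is 34.8% and that of all protein-coding genes 23.8%, and the MYC network shows none in either table.

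Every value below is a listed summit pileup, which is the number of fragments stacked at the peak summit, or a fold enrichment, which is that pileup over the local background with 1 added to both. Vector pileups were taken to be scaled to the control library, since 99.9% of them were whole multiples of 0.98953, which was read as 1 vector fragment. APOC2 pileups were whole fragments. Dividing them by 0.833, a spacing met by 65.5% of the APOC2 local backgrounds, puts them on the same control scale if both tables used the same control. The strongest peak of a gene is the one with the highest fold enrichment. Over the 16 genes its fold enrichment in the APOC2 table ran from 3.53 to 8.34 with a median of 5.07, beside a median of 5.41 over the 4778 occupied protein-coding genes (quartiles 4.32 and 6.93). The pileups ran from 12 to 42 fragments with a median of 26.5, beside 28.0 over the occupied protein-coding genes. On either measure the median of the 16 genes lay near that of all occupied protein-coding genes, while single genes were spread widely. In fold enrichment they ran from percentile 9.15 (AKT1) to 87.8 (EGFR) of those genes. In pileup they ran from percentile 1.21 (LEF1) to 85.6 (CTNNB1, LRP6 and GSK3A).

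**Figure D2:**
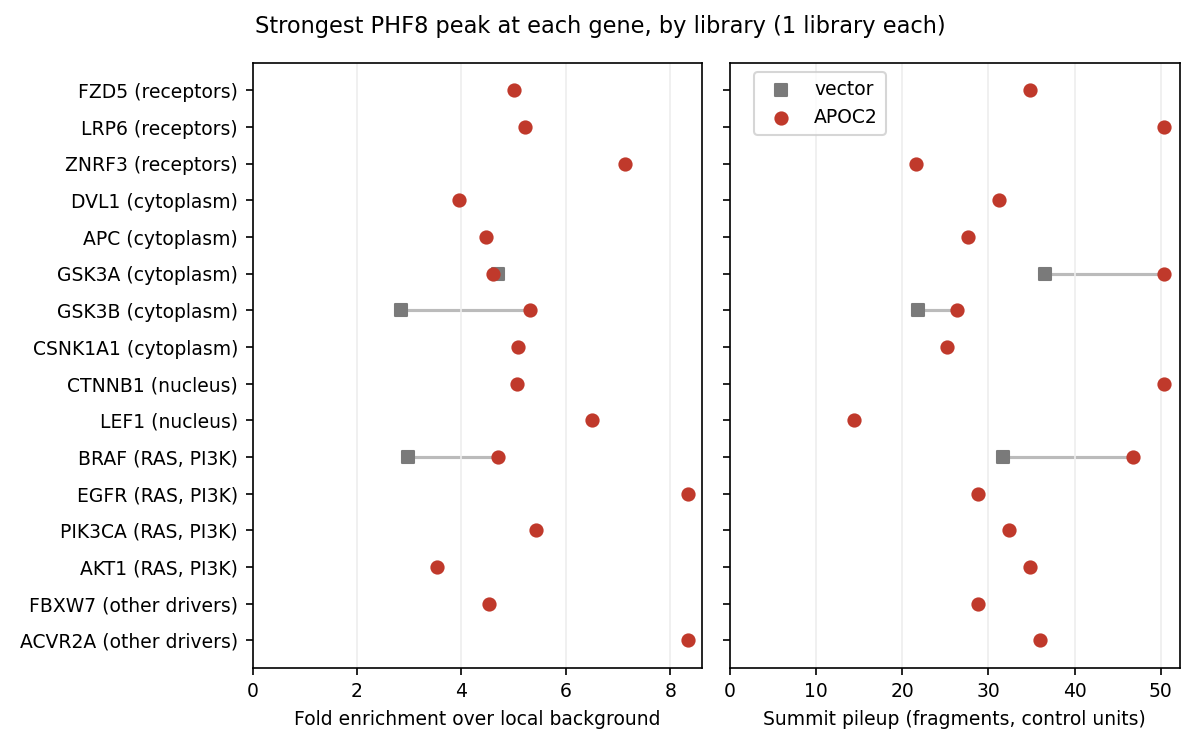
Fold enrichment over local background (left) and summit pileup in control units (right) of the strongest peak at each of the 16 occupied genes, in order of role; grey squares are the vector library, red circles the APOC2 library and a line joins both where both had a peak. Only GSK3A, GSK3B and BRAF have a grey square, and EGFR and ACVR2A have the highest fold enrichment.

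Among the receptors and membrane proteins, FZD5, LRP6 and ZNRF3 had a peak in the APOC2 table and no peak in the vector table. FZD5, a Frizzled receptor of the intestinal epithelium, had a peak at chr2:207769459-207769844 with a pileup of 29 and a fold enrichment of 5.00. LRP6, the co-receptor that is phosphorylated when WNT binds, had a broad peak of 931 bp at chr12:12266647-12267577, longer than the longest peak at 97.5% of occupied protein-coding genes. Its pileup of 42 was shared with CTNNB1 and GSK3A as the highest of the list, while its fold enrichment was 5.21 because the local background was 7.26 fragments. ZNRF3, a ubiquitin ligase that removes Frizzled from the cell surface and so dampens the pathway, had a short peak of 218 bp at chr22:28883539-28883756. There a pileup of 18 over a background of 1.66 gave a fold enrichment of 7.13. ZNRF3 thus had the lowest pileup and the highest fold enrichment of these 3 genes. FZD1, FZD7, LRP5, the R-spondin receptors LGR4 and LGR5, and RNF43, the relative of ZNRF3 that is often mutated in colorectal cancer, had no peak in either table.

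The Dishevelled and destruction complex proteins held 2 of the 3 genes occupied in both tables. GSK3A, one of the GSK3 kinases that mark beta-catenin for degradation, had a vector peak at chr19:42242361-42242587 with a pileup of 36.6 and a fold enrichment of 4.70. In the APOC2 table its peak was at chr19:42242334-42242617, with a pileup of 42 and a fold enrichment of 4.61. The log2 ratio of the APOC2 to the vector fold enrichment was -0.03 with a counting error of 0.33, so no difference was detectable at this depth. With pileups in control units, which take no account of local background, the log2 ratio was 0.46. Among the protein-coding genes occupied in the vector table, GSK3A was at percentile 38.1 of fold enrichment, whereas GSK3B and BRAF were at percentiles 1.76 and 2.35.

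GSK3B, the second GSK3 kinase, had a single vector peak at chr3:120095242-120095472, with a pileup of 21.8 and a fold enrichment of 2.85. It had a pair of peaks in the APOC2 table. The first, at chr3:120095208-120095639, overlapped the vector peak and had a pileup of 22 and a fold enrichment of 3.84. The other, at chr3:120094183-120094400, had no vector counterpart and had a pileup of 22 and a fold enrichment of 5.31. The summit of the vector peak lay 942 bp upstream of the RefSeq start, and that of the second APOC2 peak lay 185 bp downstream of it. Between the strongest peaks the log2 ratio was 0.90 with a counting error of 0.43, and between the overlapping peaks it was 0.43 with the same error. With the pileups of the strongest peaks in control units it was 0.28, and with pileups as listed 0.015, both within the counting error. All of these peaks also lay within 1 kb of an end of the divergent transcript GSK3B-DT.

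Of the remaining proteins around the destruction complex, APC, CSNK1A1 and DVL1 had an APOC2 peak only. CSNK1A1, the casein kinase that primes beta-catenin for GSK3, had a peak at chr5:149551614-149551868 with a pileup of 21 and a fold enrichment of 5.08, and an end of ARHGEF37 lay within 1 kb of it as well. DVL1, a Dishevelled protein, had a peak at chr1:1349592-1349843 with a pileup of 26 and a fold enrichment of 3.95. DVL2, DVL3, AXIN1 and AXIN2 did not meet the 1 kb rule in either table.

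APC, the tumour suppressor most often lost in colorectal cancer, has a pair of RefSeq starts, and each had a peak in the APOC2 table and none in the vector table. At the upstream start (position 112707498 of chromosome 5) the peak chr5:112707625-112707859 had a pileup of 23 over a background of 4.36 and a fold enrichment of 4.48. At the downstream start (position 112737885) the peak chr5:112737514-112738019 had a pileup of 17 over a background of 1.27 and a fold enrichment of 7.93. The downstream peak lies inside the gene, 30268 bp from its nearer annotated end, and was therefore not counted by the 1 kb rule. Both APC promoters are printed because a peak lay beside each of them. In this and the other printed promoters, which run from 250 bases before to 50 bases after the RefSeq start (RefSeq sequence, GRCh38.p14, strand of the gene), capitals mark 4 motifs on either strand, namely the E-box (CACGTG), the GC box (GGGCGG), the CCAAT box, and the TCF and LEF core (CTTTGAT, or the same letters with A at the end). The upstream window is chr5:112707248-112707547 on the plus strand and the downstream window chr5:112737635-112737934 on the plus strand.
APC upstream promoter: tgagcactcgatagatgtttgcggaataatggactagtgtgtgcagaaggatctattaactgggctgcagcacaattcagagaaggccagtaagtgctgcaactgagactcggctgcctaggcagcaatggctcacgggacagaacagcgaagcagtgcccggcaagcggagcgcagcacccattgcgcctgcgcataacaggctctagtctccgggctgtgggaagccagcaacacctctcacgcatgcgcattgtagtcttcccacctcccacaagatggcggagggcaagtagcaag
APC downstream promoter: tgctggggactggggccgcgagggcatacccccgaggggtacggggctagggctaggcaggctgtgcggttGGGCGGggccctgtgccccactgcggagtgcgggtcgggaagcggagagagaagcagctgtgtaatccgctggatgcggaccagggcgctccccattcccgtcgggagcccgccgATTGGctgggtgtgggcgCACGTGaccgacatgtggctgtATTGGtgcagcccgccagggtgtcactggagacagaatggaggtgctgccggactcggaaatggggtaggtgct
The upstream window had a GC content of 56.3%, 14 CpG dinucleotides and none of the motifs. The downstream window had 68.0%, 23 CpG dinucleotides, 1 E-box, 1 GC box and 2 CCAAT boxes, and the APOC2 peak covered all 300 of its bases. The upstream peak covered 0 bases of its window, since it began downstream of it.

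Around AXIN1, the scaffold of the destruction complex, no peak was listed within 1 kb in either table, and its promoter is printed as the example of an unoccupied member of that complex (chr16:352674-352973, minus strand). It had a GC content of 78.0%, 44 CpG dinucleotides and 8 GC boxes, both counts above those of either APC promoter.
AXIN1 promoter: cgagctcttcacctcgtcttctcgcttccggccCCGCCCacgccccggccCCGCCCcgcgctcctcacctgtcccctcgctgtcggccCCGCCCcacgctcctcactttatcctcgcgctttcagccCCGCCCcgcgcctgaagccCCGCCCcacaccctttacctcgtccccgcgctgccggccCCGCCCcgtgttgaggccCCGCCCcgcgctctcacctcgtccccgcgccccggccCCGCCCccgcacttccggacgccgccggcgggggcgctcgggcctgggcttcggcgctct
The nearest peaks of AXIN1 lay 11.8 kb away in the vector table and 11.7 kb away in the APOC2 table, at an end of RGS11, with fold enrichments of 4.57 and 7.71.

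In the nucleus, CTNNB1 and LEF1 were occupied in the APOC2 table. CTNNB1, which encodes beta-catenin, had a peak of 606 bp at chr3:41199070-41199675 with a pileup of 42, a background of 7.49 and a fold enrichment of 5.06. No vector peak lay within 1 Mb of CTNNB1. LEF1, a DNA-binding partner of beta-catenin, had 3 APOC2 peaks along the first kilobases of its locus on chromosome 4. They were chr4:108166650-108166927 with a pileup of 13, chr4:108167739-108168139 with 11 and chr4:108168532-108168866 with 12. Their fold enrichments were 5.71, 6.29 and 6.51 over backgrounds of 1.45, 0.907 and 0.998 fragments, so all 3 were small stacks over an almost empty background. LEF1 also had a vector peak, chr4:108167608-108168078, with a pileup of 15.8 and a fold enrichment of 4.21. It overlapped the middle APOC2 peak but neither of the others. The midpoint of that vector peak lay 1089 bp from the annotated beginning of the gene and that of the overlapping APOC2 peak 993 bp from it. The 1 kb window thus left this vector peak out, and LEF1 counted among the genes with an APOC2 peak only. Between these overlapping peaks the log2 ratio of fold enrichment was 0.58 with a counting error of 0.57, whereas with pileups in control units it was -0.26. The other 12 genes with an APOC2 peak only had no overlapping vector peak. The same count was not made over all protein-coding genes with an APOC2 peak only, so it has no background to be read against. TCF7, TCF7L1, TCF7L2 and the beta-catenin co-activators BCL9, BCL9L and PYGO2 had no peak at their ends, and the nearest APOC2 peak to TCF7L2 lay 1.65 Mb away.

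MYC, a master regulator of growth and a target of beta-catenin, was the only gene of the list on chromosome 8. It is given apart because the vector share was high on the long arm of that chromosome (8q), where MYC lies. Neither table had a peak at MYC (chr8:127735434-127742951). The nearest peaks lay 1.18 Mb away in both tables, at ends of LRATD2 and LOC105375751. There the vector peak chr8:126558104-126558361 had a pileup of 21.8 and a fold enrichment of 5.22, and the APOC2 peak chr8:126557995-126558414 had 30.0 and 8.33. The long arm was taken as gene positions beyond 46 Mb. Of its 423 protein-coding genes, 170 were occupied in the vector table (40.2%, 35.6 to 44.9%) and 223 in the APOC2 table (52.7%, 48.0 to 57.4%). MYC was thus unoccupied in a region where the vector share was above that of the 46 genes and of all protein-coding genes. MAX, the obligate partner of MYC, and MXD1 and MNT, which compete with MYC for MAX, had no peak at their ends either. The nearest APOC2 peaks lay 91.5 kb from MAX, 173 kb from MXD1 and 46.8 kb from MNT.

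Among growth factor, RAS and PI3K genes, BRAF was occupied in both tables. BRAF, a kinase downstream of RAS, had a vector peak at chr7:140924371-140924804 with a pileup of 31.7 over a background of 10.0 and a fold enrichment of 2.97. In the APOC2 table the peak chr7:140924480-140924916 had a pileup of 39 over a background of 7.49 and a fold enrichment of 4.71. The log2 ratio was 0.67 with a counting error of 0.34, and with pileups in control units it was 0.56. The summits lay 372 bp and 484 bp upstream of the only listed RefSeq start, yet inside the annotated gene.

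EGFR, the epidermal growth factor receptor, had the highest fold enrichment of the list, 8.34, with a pileup of 24 over a background of 2.0 in a peak of 908 bp at chr7:55018702-55019609. Its length exceeded the longest peak at 97.2% of occupied protein-coding genes, and LOC105375284 had an end within 1 kb of the same peak. PIK3CA, the catalytic subunit of PI3-kinase, had an APOC2 peak at chr3:179148339-179148653 with a pileup of 27 and a fold enrichment of 5.42, shared with the divergent transcript PIK3CA-DT. AKT1, a kinase activated by PI3-kinase, had the lowest fold enrichment of the list, 3.53, with a pileup of 29 at chr14:104795846-104796064. AKT1 thus had a larger pileup than EGFR at a lower fold enrichment. NRAS, HRAS, MAP2K1, MAP2K2, MAPK3, AKT2 and ERBB2 had no peak at their ends.

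ERBB2, a receptor of the EGFR family, nevertheless had a peak inside the gene in both tables. The vector peak chr17:39700035-39700363 had a pileup of 16.8 and a fold enrichment of 5.91, and the APOC2 peak chr17:39699661-39700339 had 24 and 9.38, the highest fold enrichment of any peak in or at these genes. The log2 ratio was 0.67 with a counting error of 0.46, and 0.78 with pileups in control units. The summits lay 12054 bp and 12024 bp downstream of the only listed RefSeq start. Whether an unlisted start of ERBB2 lies at these peaks was not tested.

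Of the other drivers, FBXW7 and ACVR2A had an APOC2 peak only. FBXW7, which directs MYC and other proteins to degradation, had a pair of peaks on either side of its most upstream RefSeq start. The peak chr4:152535822-152536047 had a pileup of 24 and a fold enrichment of 4.52, and the peak chr4:152536334-152536591 had 27 and 3.66. MIR4453 and its host transcript MIR4453HG had an end within 1 kb of both. ACVR2A, an activin receptor often truncated in colorectal cancers with unstable microsatellites, had a peak at chr2:147844545-147844821 with a pileup of 30.0 over a background of 2.72 and a fold enrichment of 8.33. MDM2, ARID1A and SOX9 had no peak in either table, and the nearest APOC2 peaks lay 61.9 kb, 44.7 kb and 466 kb from them.

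Fold enrichment and pileup ordered the 16 genes differently. The 4 genes with the highest fold enrichment, EGFR, ACVR2A, ZNRF3 and LEF1, had backgrounds of 2.0, 2.72, 1.66 and 0.998 fragments. The 3 with the highest pileup, CTNNB1, LRP6 and GSK3A, each at 42, had backgrounds of 7.49, 7.26 and 8.32. At LEF1 the pileup of 12 was at percentile 1.21 of the occupied protein-coding genes and the fold enrichment at percentile 69.3.

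Among listed peaks, -log10 p started at 4.70 for vector and at 4.16 for APOC2. A vector stack that missed the caller's limits would not be listed, so a missing vector entry does not show that vector signal was absent. Among the 13 genes with an APOC2 peak only, LEF1 had a vector peak listed just outside the window. The vector pileup needed for listing was estimated from the lowest vector -log10 p and the APOC2 local background in control units. At the 13 genes the APOC2 pileup in control units was 1.41 to 2.60 times that level, with a median of 1.85. Over all protein-coding genes with an APOC2 peak only the median was 1.77. The part of the listing limits in these calls was not tested.

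At the 3 genes occupied in both tables the median log2 ratio of fold enrichment was 0.67, beside a median of 0.52 (quartiles 0.22 and 0.78) over the 1171 protein-coding genes with a peak in both. With pileups in control units the order turned, with a median of 0.46 at the 3 genes and of 0.56 over the protein-coding genes. The ratio was above 0 at 2 of the 3 genes and at 89.4% of those 1171. In fold enrichment, only GSK3B lay above the upper quartile, and it did so through the pairing of its strongest peaks, since the overlapping peaks gave 0.43. The vector peak of GSK3B was lost at a q-value of at most 0.001, and the median over BRAF and GSK3A was then 0.32.

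The position of the summits was compared with the nearest RefSeq start, which the promoter table gave for 14 of the 16 genes. LRP6 and ZNRF3 had no entry. At 13 of the 14 (92.9%) the summit of the strongest APOC2 peak lay within 500 bp of a start, beside 87.4% of occupied protein-coding genes with a listed start. It was 100 to 300 bp downstream of the start at 7 genes, namely FZD5, APC, GSK3B, PIK3CA, GSK3A, EGFR and FBXW7. It was 200 to 500 bp upstream at 6, namely AKT1, CTNNB1, CSNK1A1, DVL1, ACVR2A and BRAF. At ACVR2A and BRAF the annotated gene begins upstream of the listed start, and these summits lay inside the gene. The upstream count thus depends on which start was listed. None of the 13 summits lay within 100 bp of the start. Over the 3649 protein-coding genes with a summit within 1 kb of a start, 55.5% lay in the same downstream interval, 17.0% in the same upstream interval and 14.1% within 100 bp. For LEF1 the strongest summit lay 2375 bp upstream of the only listed start, yet inside the annotated gene, which begins upstream of that start. The midpoint of this peak lay 233 bp from that annotated beginning of the gene. No peak of the 46 genes was counted through the downstream end of a gene with a listed start. Exons, introns and untranslated regions were not annotated in the gene table used here.

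**Figure D3:**
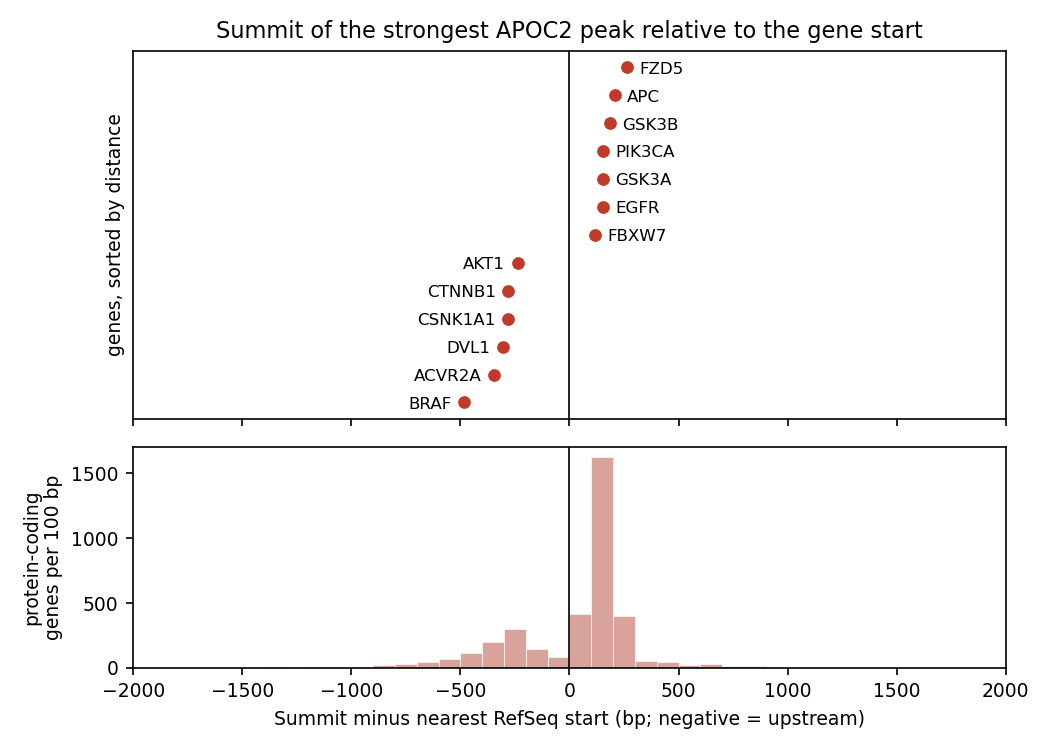
Distance in bp from the nearest RefSeq start to the summit of the strongest APOC2 peak, with negative values upstream; the upper panel shows 13 genes of the list by name and the lower panel counts all occupied protein-coding genes per 100 bp. The named genes form an upstream group between -484 and -238 bp and a downstream group between 117 and 263 bp, and the lower panel has its main mode 100 to 200 bp downstream. In the upstream group, the summits of ACVR2A and BRAF lie inside the annotated gene, which begins upstream of the listed start.

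The closest misses of the 1 kb rule were inspected. Just inside the window were the overlapping APOC2 peaks of LEF1 (993 bp) and GSK3B (976 bp) and the vector peak of GSK3B (910 bp). Just outside were the vector peak of LEF1 (1089 bp), an APOC2 peak beyond the end of DVL3 (1.40 kb) that lay at an end of AP2M1, and an APOC2 peak inside AXIN2. The latter, chr17:65560082-65560310, lay 1452 bp from the nearer end of AXIN2 and had a pileup of 18 and a fold enrichment of 6.34.

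Some features outside the rule were shared by the genes. Another gene with a RefSeq transcript had an end within 1 kb of the strongest APOC2 peak at 7 of the 16 genes (43.8%), beside 50.1% of occupied protein-coding genes. More than 1 APOC2 peak lay at the ends of 3 of the 16, GSK3B, LEF1 and FBXW7 (18.8%), beside 11.1%. Promoter sequence was given for 38 of the 46 genes. The 8 others were AXIN2, BCL9L, LRP6, FZD7, ZNRF3, LGR5, MYC and SOX9. At the most upstream start, the median GC content was 69.5% at the 14 occupied genes and 70.8% at the 24 unoccupied genes, with medians of 33 and 29 CpG dinucleotides. Over protein-coding genes the medians were 67.0% and 29 with an APOC2 peak and 61.0% and 18 without. The median GC content of the unoccupied genes of the list was thus not below that of the occupied ones.

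The same promoters, 1 per gene at its most upstream start, were searched on both strands for the E-box CACGTG bound by MYC with MAX, the TCF and LEF core as CTTTGAT (or the same letters with A at the end), the GC box GGGCGG and the CCAAT box. No motif contains another, although neighbouring matches may share bases. The GC box was found at 11 of the 14 occupied and 19 of the 24 unoccupied genes, which is 78.6% and 79.2%. The shares were 76.7% of protein-coding genes with an APOC2 peak, 52.4% of those without and 45.0% of all 35116 promoter entries. The CCAAT box was found at 5 and 9 genes of the list, beside 36.0% of protein-coding genes with an APOC2 peak, 36.5% without and 34.6% of entries. The E-box was found at 0 and 4, beside 9.76%, 8.52% and 7.26% of the same 3 sets. The TCF and LEF core was found at none of the 38 genes, beside 3.12%, 6.24% and 6.86%. These are descriptions of letters in a 300-base window and not of binding.

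The promoters of GSK3B and BRAF are printed for the largest log2 ratios of fold enrichment between strongest peaks, among the 3 genes with a peak in both tables, and those of EGFR and ACVR2A for the highest fold enrichments among genes with an APOC2 peak only. They are chr3:120094398-120094697 (minus strand), chr7:140924219-140924518 (minus), chr7:55018767-55019066 (plus) and chr2:147844779-147845078 (plus).
GSK3B promoter: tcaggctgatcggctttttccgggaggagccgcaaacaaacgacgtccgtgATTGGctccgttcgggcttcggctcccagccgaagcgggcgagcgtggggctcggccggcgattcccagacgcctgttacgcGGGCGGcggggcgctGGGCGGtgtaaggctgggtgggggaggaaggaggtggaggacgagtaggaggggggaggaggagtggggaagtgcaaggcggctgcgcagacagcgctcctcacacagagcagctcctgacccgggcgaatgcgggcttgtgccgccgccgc
BRAF promoter: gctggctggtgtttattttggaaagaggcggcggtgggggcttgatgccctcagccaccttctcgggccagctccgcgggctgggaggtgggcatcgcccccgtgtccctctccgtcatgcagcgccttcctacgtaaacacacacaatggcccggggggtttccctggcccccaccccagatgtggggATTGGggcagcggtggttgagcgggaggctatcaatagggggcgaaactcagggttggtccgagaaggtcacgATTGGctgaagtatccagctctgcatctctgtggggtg
EGFR promoter: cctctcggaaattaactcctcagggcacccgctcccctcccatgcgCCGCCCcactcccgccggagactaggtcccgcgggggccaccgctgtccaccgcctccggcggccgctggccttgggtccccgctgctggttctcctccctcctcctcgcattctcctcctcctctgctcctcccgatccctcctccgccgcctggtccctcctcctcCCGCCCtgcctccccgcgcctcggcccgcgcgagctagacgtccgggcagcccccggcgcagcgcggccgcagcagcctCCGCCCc
ACVR2A promoter: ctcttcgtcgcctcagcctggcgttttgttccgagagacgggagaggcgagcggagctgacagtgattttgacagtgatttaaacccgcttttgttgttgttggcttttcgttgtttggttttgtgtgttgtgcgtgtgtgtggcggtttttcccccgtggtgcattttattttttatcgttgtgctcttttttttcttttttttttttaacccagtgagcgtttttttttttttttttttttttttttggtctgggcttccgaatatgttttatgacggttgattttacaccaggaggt
The EGFR window had a GC content of 75.3% and 33 CpG dinucleotides, with 3 GC boxes, and its APOC2 peak covered all 300 bases. The ACVR2A window, at 41.3%, was the lowest in GC of the 14 occupied genes and had none of the motifs, although its fold enrichment was nearly that of EGFR. Its peak covered 43 bases at the upstream edge of the window, away from the run of thymines before the start. In the GSK3B window, with 69.3%, 2 GC boxes and 1 CCAAT box, the strongest APOC2 peak touched 3 bases, and in the BRAF window, with 63.0% and 2 CCAAT boxes, it covered 39.

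The remaining genes of the pathway were taken from a list of 87 WNT ligands, receptors, inhibitors, regulators and MYC relatives. Of these, 17 were occupied in the APOC2 table (19.5%, 12.6 to 29.1%) and 8 in the vector table (9.20%, 4.73 to 17.1%), and all 8 were among the 17. The background of 23.8% and 5.95% lay inside both intervals. Only 1 of 19 WNT ligand genes, WNT10A, was occupied in the APOC2 table, and none was in the vector table. The counts in the APOC2 table were 1 of 7 for secretion factors and R-spondins, 2 of 11 for receptors, 3 of 14 for inhibitors, 5 of 13 for kinases and degradation factors, 3 of 12 for nuclear factors and 2 of 11 for MYC relatives.

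In fold enrichment, the highest values of that list were at FZD6, a Frizzled receptor gene on the long arm of chromosome 8, with 12.2 in the vector table and 18.2 in the other. CBY1, an inhibitor of beta-catenin, followed with 8.03 and 8.56, and WLS, which carries WNT ligands to the cell surface, with 6.94 and 7.19. DKK4, a secreted inhibitor on chromosome 8, had 3.41 and 6.53 at a peak that also lay at an end of VDAC3. TNKS, a tankyrase that destabilises AXIN and also lies on chromosome 8, had 6.91 and 5.89. SKP1 and FBXW11, parts of the ubiquitin ligase that degrades beta-catenin, had fold enrichments of 5.2 and 4.0 at SKP1 and of 3.86 and 4.66 at FBXW11. EP300, a histone acetyltransferase, had 4.32 and 4.87. The median log2 ratio over these 8 genes was 0.13, and 6 of the 8 ratios were above 0, beside a median of 0.52 and 89.4% above 0 over the 1171 protein-coding genes. The largest was 0.94 with a counting error of 0.33 at DKK4, and the lowest was -0.38 with an error of 0.34 at SKP1. Of the 8 genes, 3 lay on chromosome 8, where 6 genes of the list are found. Only the peaks of FZD6 lay beyond 46 Mb, on the long arm, and those of TNKS and DKK4 lay before that limit.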

How the data were processed

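PHF8 ChIP-seq was measured in RKO cells, with 1 library for vector and 1 for APOC2, grouped by the treatment in the labels. Per the submitters' processing notes, Bowtie2 2.2.9, MACS2 2.0, HOMER and the build hg38 were used. Their options and the control library are not given in the sources used here. Per the file headers, the deposited tables hold the signal at each summit as a fragment pileup and the fold enrichment over local background. A pair of deposited columns without a usable name hold -log10 of the p-value and of the q-value, judged from their place and values. The highest listed q-value was 0.0266 (vector) and 0.0450 (APOC2). Read totals were unknown. The spacing of pileups (99.9% of the vector values were whole multiples of 0.98953) and of local backgrounds (0.833 in the APOC2 table, met within 0.01 by 65.5% of them) gave an APOC2 depth of 0.824 times the vector depth if both used the same control.

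Gene positions and promoter sequences came from RefSeq tables (GRCh38.p14), the latter with 27305 genes. Peaks were assigned with Python 3.11.15, pandas 2.3.3 and scipy 1.17.1, after the assignment and the search for spacings had been tested on simulated data. Local background was computed from pileup and fold enrichment. Counting errors are Poisson errors of both pileups and leave out any error of the local backgrounds, also where they stand beside a ratio of fold enrichment. Intervals are 95% Wilson intervals over genes, and like those errors they cover counting only. No test was run. The 46 genes, the 87 other pathway genes and the alternatives were chosen with earlier results of these data known. All 46 genes were named. Of the other pathway genes, the 5 with the highest APOC2 fold enrichment and those with peaks in both tables were named, and a gene was also named where a count of 1 arose. Promoters were chosen by the largest log2 ratios of fold enrichment between strongest peaks, the highest fold enrichments and 1 unoccupied destruction complex gene. The APC promoters were added after their values were seen.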

Additional observations from a re-analysis of the deposited data

How the results depend on the processing

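With 1 library per condition, no replicate could be left out. No paired analysis was possible because each condition had a single library without a replicate number. Of 56 recomputed values, 36 stayed within 1.5 times (counts), within the interval (shares) or within the counting error (median), and 20 moved. The alternatives were a stricter q-value or fold enrichment, equal numbers of peaks, other windows, gene starts only, other measures of the ratio, and leaving out chromosome 8. Pairing overlapping peaks was added after the data were seen and gave a median log2 ratio of 0.43.

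With a q-value of at most 0.001, 23.1% of protein-coding genes were occupied in the APOC2 table. GSK3B lost its vector peak at this limit, which left 2 genes of the list, BRAF and GSK3A, with peaks in both. Their median log2 ratio of fold enrichment was 0.32, where the 3 genes had given 0.67. That shift was counted as lying within the counting error. When only fold enrichments of 5 or more were kept, the occupied genes of the list numbered 0 in the vector table, 10 in the APOC2 table and 0 in both, against 3.21% and 14.1% of protein-coding genes, and no median ratio could be formed. With equal numbers of top-ranked peaks, 9 were occupied in the APOC2 table, 7 there only and 1 (GSK3B) in the vector table only, against 12.5% of protein-coding genes in the APOC2 table. BRAF and GSK3A again were the genes with peaks in both, with the same median log2 ratio of 0.32. A 3 kb window gave 6.58% and 26.2% of protein-coding genes. When the peak had to overlap the gene end, 0 genes were occupied in the vector table, 5 in the APOC2 table, 5 there only and 0 in both, against 1.45% and 8.55%, again without a median. With gene starts only, 25.6% of protein-coding genes were occupied in the APOC2 table. With listed pileup the median log2 ratio was 0.20. For genes occupied in both tables or in 1 table only, no share of protein-coding genes is given under these alternatives. Those counts, and the medians of this paragraph, thus have no background to be read against. Depth limits the smallest stacks, such as those of 11 to 13 fragments at LEF1.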

Other observations

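Among the 30 genes of the list without an APOC2 peak at their ends, the nearest APOC2 peak lay between 1.40 kb and 1.65 Mb away with a median of 67.3 kb, and it lay within 10 kb at 3 of them and within 100 kb at 19. At several it was at an end of a neighbouring gene. The nearest peak to HRAS, 25.1 kb away at ends of LRRC56 and RNH1, had a pileup of 42 and a fold enrichment of 7.07. The nearest to MAX, at an end of the zinc ribbon gene CHURC1, had 40.0 and 7.94. The nearest to MAP2K1, 13.9 kb away at ends of the ribosomal protein gene RPL4 and of ZWILCH, had 29 and 5.42, and a vector peak was listed there as well, with a fold enrichment of 3.68. The nearest to DVL2, 5.24 kb away at an end of DLG4, had 28.0 and 6.80. The pileups at HRAS and MAX neighbours were as high as or close to the highest among the 16 occupied genes, 42. The nearest peak to TCF7 was at an end of SKP1, which belongs to the list of other pathway genes. These distances were not compared with those of other genes.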
